A study of Mus musculus with 12 samples.

Results

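Back-splice junctions spanning 50 kb or more were examined in mouse hippocampus. The table of junctions listed 7025 mm9 intervals, and a member was any interval with a named gene whose end lay at least 50000 bp beyond its start. This rule, which uses no measured level, gave 655 long junctions, 9.32% of the listing, in 320 host genes. The 6140 shorter junctions with a named gene served for comparison, and 230 intervals without a gene name, 27 of them 50 kb or longer, were left out. A back-splice joins the end of an exon to the start of an exon upstream and so marks a circular RNA. The interval is the genomic distance between the joined ends, most of which can be intron, so it does not give the length of the circle. Circular RNAs lack free ends, resist exonucleases, and are abundant in neurons, where many come from large genes of the synapse.

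Samples came from the hippocampus of 7-month-old 5xFAD mice and wild-type (WT) mice, 12 libraries in all, with 3 for each genotype in both the AT and the CG set, named for their title prefix. The 5xFAD strain carries human transgenes with familial Alzheimer's disease mutations, driven in neurons by Thy1 regulatory sequence. The labels name no treatment and do not explain AT and CG, and the design text mentions A-tailing and RNase R, an enzyme that digests linear RNA. Junctions were measured in the AT libraries and host genes, as FPKM, in the CG libraries. Nothing in the labels states that replicates were separate animals. The p-values therefore reflect only how far these samples spread, and that spread may be technical. In bulk tissue, fewer cells of a type and less RNA per cell cannot be told apart.

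Values below are the authors' normalised signal unless reads are named, in the order WT replicates 1, 2 and 3, then 5xFAD replicates 1, 2 and 3. The whole reads recovered from the signal numbered 438790, 695539 and 695528 in WT and 191408, 683540 and 659414 in 5xFAD. Reads in long junctions numbered 34640, 56479 and 57048 in WT and 14267, 55090 and 54952 in 5xFAD. In 5xFAD replicate 1 the median long junction had 7 reads, against 20 to 36 in the other libraries, and 66 of the 655 were at 0, against 2 and 4 in the other 5xFAD libraries. WT replicate 1 was the next shallowest, with 58 long junctions at 0. A junction entered the table only where it reached a signal of at least 2.03 in all 3 libraries of 1 genotype or of both. Of the long junctions, 368 did so in both genotypes, 141 only in WT and 146 only in 5xFAD.

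Long junctions carried a small and steady part of the back-splice signal. Their share was 7.89%, 8.12% and 8.20% in WT, a mean of 8.07% ± 0.159 (SD, n = 3). It was 7.45%, 8.06% and 8.33% in 5xFAD, a mean of 7.95% ± 0.450 (SD, n = 3). The genotypes overlapped, with both the lowest and the highest share in 5xFAD libraries. The lowest share was in the shallow 5xFAD replicate 1, and the part of depth in it was not tested.

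Interval lengths ran from 50013 to 429195 bp, with a median of 76082 bp, against 9642 bp over all junctions with a named gene. There were 203 members of 100 kb or more and 41 of 200 kb or more. Just inside the threshold were junctions of Cacna2d1, Fam13c and Dennd1b, the shortest of them 50013 bp long. Just outside were Gphn at 49995 bp, with a mean signal of 20.1, Tenm3 at 49935 bp, with 64.6, and 2010111I01Rik at 49853 bp, with 4.53.

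Among listed junctions, all of which had reached the signal minimum for listing, the typical long one was almost as abundant as the typical shorter one. The median over junctions of the mean signal was 7.56 for long ones (quartiles 4.54 and 15.9) and 8.47 for shorter ones (quartiles 4.84 and 18.4). On the log2 scale the gap was -0.15, and in the single libraries it was -0.23, -0.15 and 0.00 in WT and -0.45, -0.07 and 0.00 in 5xFAD. The gap was widest in the shallow 5xFAD replicate 1 and was absent from replicate 3 of both genotypes. By length, the median was 8.15 from 50 to 100 kb (452 junctions), 7.13 from 100 to 200 kb (162 junctions) and 4.71 at 200 kb or more (41 junctions). Below 50 kb, classes had medians of 7.89 to 9.21 with no steady order, so the lowest class median was that of the longest intervals. In 5xFAD replicate 3 alone, the median at 200 kb or more, 7.17, was equal to that from 1 to 5 kb. A mean signal of 50 or more was reached by 44 long junctions, 6.72% of them, and by 9.12% of the shorter ones. These comparisons of classes are descriptions, with no test.

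**Figure D1:**
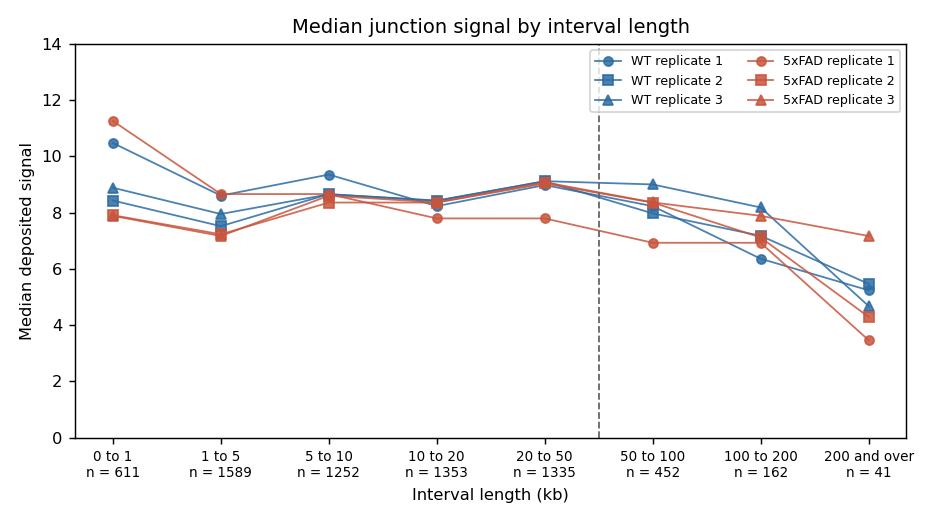
Median signal over the junctions of each interval length class, in kb, with 1 line per AT library and a dashed line at 50 kb. The 41 junctions of 200 kb or more have medians of 3.46 to 7.17, the lowest of all classes in every library but 5xFAD replicate 3, where that of 1 to 5 kb is equally low.

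The signal of long intervals was concentrated in few junctions. The 10 most abundant held 26.3% of it and the 44 with a mean signal of 50 or more held 47.4%, while 395 members (60.3%) had a mean signal under 10. Ataxin 1, the nuclear polyglutamine protein whose expansion causes a spinocerebellar ataxia, was the host of the most abundant. The 14 long junctions of Atxn1 held 15.4% of the long-interval signal, from 13.1% to 18.4% in single libraries. Without Atxn1 the share of long intervals was 6.82% in WT and 6.74% in 5xFAD.

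The most abundant member was the 161 kb Atxn1 interval chr13:45890877-46051944. Its signal was 1061, 865 and 986 in WT and 992, 702 and 895 in 5xFAD. The genotypes overlapped, and the lowest value was in 5xFAD replicate 2. A 104 kb Atxn1 interval with the same higher end had 443, 297 and 323 in WT and 638, 293 and 277 in 5xFAD. A 221 kb interval with that end, chr13:45830483-46051944, had 385, 345 and 387 in WT and 353, 307 and 398 in 5xFAD. In both, the genotypes overlapped, and the high value of the 104 kb interval was in the shallow 5xFAD replicate 1.

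Ncoa2 encodes a coactivator of nuclear receptors. Its 64.7 kb interval, chr1:13211387-13276106, was the second most abundant, with 663, 598 and 452 in WT and 495, 668 and 444 in 5xFAD. Stau2 encodes a double-stranded RNA-binding protein that carries RNA into dendrites. Its 69.1 kb interval, chr1:16430403-16499489, had 286, 245 and 215 in WT and 230, 192 and 234 in 5xFAD. Its mean of 234 was 11.5 times that of the most abundant shorter Stau2 junction, at 20.3, and the genotypes overlapped for both genes.

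The other 5 of the 10 had means of 176 to 212. Arhgap32, a GTPase-activating protein, had a 55.2 kb interval at 117, 280 and 258 in WT and 128, 237 and 251 in 5xFAD. Replicate 1 of each genotype, the shallowest libraries, had the low values there. Col19a1, which encodes a collagen, had a 59.1 kb interval at 353, 112 and 155 in WT and 254, 73.7 and 108 in 5xFAD, with the high value of each genotype in replicate 1. The remaining 3 were a 79.9 kb interval of Tasp1, a protease that cleaves nuclear factors, a 64.2 kb interval of Ralgps1, an activator of Ral GTPases, and a 126 kb interval of Large, the glycosyltransferase that modifies dystroglycan. Tasp1 had 141, 180 and 184 in WT and 119, 200 and 297 in 5xFAD. Across all 10, differences between genotypes ran from -0.53 to 0.20 on the log2(signal + 1) scale, with limma adjusted p of 0.918 to 0.997, and no member had genotypes that did not overlap.

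**Figure D2:**
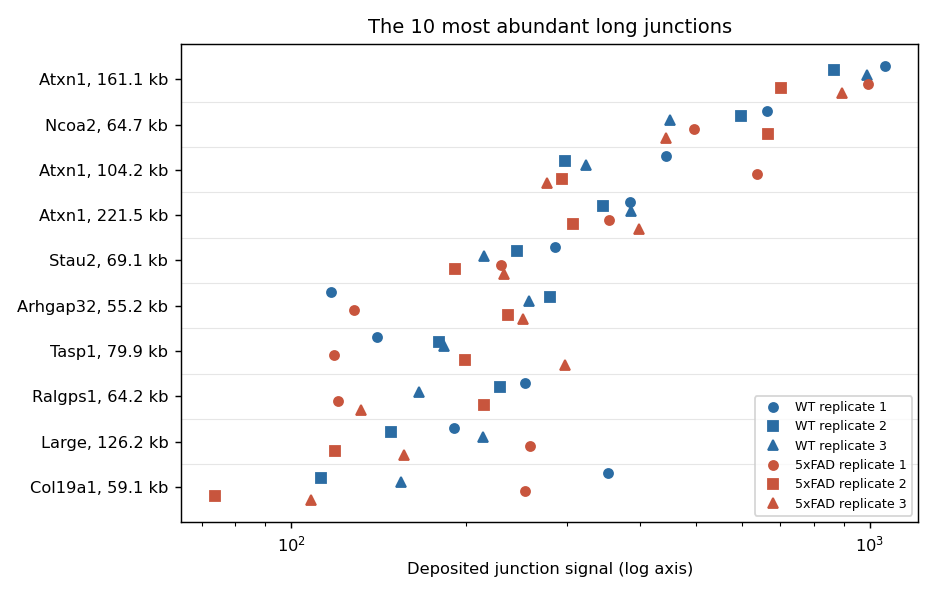
Signal of the 10 most abundant long junctions in each AT library, on a log axis, with WT and 5xFAD libraries in different colours. The 161 kb Atxn1 interval leads at 702 to 1061, and in all 10 the genotypes overlap.

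Many long intervals shared their host with other long intervals, although most hosts of long intervals had only 1. Of the 2947 host genes, 320 (10.9%) had a long junction. One long junction was listed for 178 of them, 2 for 71, and 3 or more for another 71, which together held 335 of the 655 members. The median host with a long junction had 5 listed junctions of any length, and the median host without one had 1. In the CG libraries, the median expression of hosts with a long junction was 20.4 FPKM (quartiles 11.5 and 39.6), and that of the other 2627 hosts was 16.2 FPKM (quartiles 8.84 and 31.4).

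Dgki, a diacylglycerol kinase, had the most long junctions, 17, beside 19 shorter ones. They were less abundant than the gene's main junction: the highest, of 80.5 kb, had a mean signal of 41.7, against 701 for the top shorter Dgki junction. Summed, the long Dgki junctions had 140, 267 and 290 in WT and 183, 294 and 269 in 5xFAD, with the low value of each genotype in replicate 1. Atxn1 was the reverse, with 14 long junctions against 1 shorter one at a mean signal of 6.74. The Atxn1 sums were 2190, 1847 and 2031 in WT and 2268, 1634 and 1906 in 5xFAD, which overlapped.

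Tasp1 had 10 long junctions with means from 3.64 to 187. Summed, they had 279, 342 and 405 in WT and 307, 360 and 522 in 5xFAD. Rere, a corepressor of the atrophin family, Rfx3, a transcription factor of ciliated cells, and Dennd1a, an exchange factor for a Rab GTPase, had 8 each. The top Rfx3 interval, of 51.2 kb, had 134, 95.9 and 169 in WT and 120, 118 and 120 in 5xFAD, so that the 5xFAD values lay inside the WT range. Nbea, Lrrc7 and Foxp1 had 7 each. Across these 9 hosts the genotype difference of single long junctions ran from -1.76 to 1.97 (log2), and none passed the adjusted threshold in limma.

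Most long intervals used an end that another listed junction, whatever its named gene, also used. At least 1 end was shared by 574 of 655 (87.6%), and both ends by 253 (38.6%). Of the shorter junctions, 51.7% shared an end and 11.0% shared both, a difference that was not tested. Another listed junction lay inside 519 long intervals (79.2%), up to 30 in 1 interval, and inside 27.8% of the shorter ones. A longer interval can hold more junctions by its size alone, and hosts of long intervals had more junctions.

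Counting long intervals alone, the most used end was the higher Atxn1 coordinate, chr13 position 46051944. There 7 long intervals ended, from 104 to 275 kb in length and from 3.70 to 917 in mean signal. Their lower ends lay at different positions, and levels followed no order of length: the 104 kb interval had a mean of 379, that of 161 kb 917, that of 221 kb 363 and that of 259 kb 138. A second higher end, 3 bp away at 46051941, paired with 4 of the same lower ends. At each of these 4 the junction at 46051944 was the higher one, by 16.0, 29.5, 84.1 and 18.1 times. The only other pair of long junctions within 10 bp of each other was in Hivep2, a zinc-finger transcription factor, also 3 bp apart. Its 2 members had means of 66.2 and 21.8. The less abundant one had 8.61, 18.0 and 11.9 in WT and 62.4, 16.5 and 13.4 in 5xFAD, so that the high value was in the shallow 5xFAD replicate 1. Whether such pairs are separate splice choices or alternative placements of 1 junction was not tested.

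Only 2 long intervals held a junction assigned to another host, and they overlapped each other. An interval of 217 kb named for Foxp1, a forkhead transcription factor, enclosed junctions of Eif4e3, a cap-binding protein. It had 13.5, 30.8 and 15.7 in WT and 17.3, 16.0 and 27.5 in 5xFAD. An interval of 223 kb named for Eif4e3, chr6:99379203-99601785, enclosed Foxp1 junctions and ended at the same higher position. It had 0, 5.47 and 3.51 in WT and 3.46, 3.62 and 2.63 in 5xFAD. Both had reads in libraries of both genotypes, with overlapping values.

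In most hosts a shorter junction was the major one. Of 284 hosts with both kinds, 67 (23.6%) had a long junction as the most abundant, and the median log2 ratio of the best long over the best shorter junction was -1.42 (quartiles -2.58 and -0.11). The best of each kind was taken whatever its number of junctions, and many of these hosts list more shorter than long ones. The part of these numbers in the ratio was not tested. In single libraries the median ratio was -1.64, -1.42 and -1.47 in WT and -2.05, -1.40 and -1.30 in 5xFAD, lowest in the shallow 5xFAD replicate 1. The best shorter junction was at least 4 times as abundant in 117 hosts. The best long one was at least 4 times as abundant in 15, and 36 hosts had long junctions only. Of the 5 junctions highest over their host's best shorter one, 4 were in Atxn1. The fifth was a 53.8 kb interval of Cttnbp2, which encodes a cortactin-binding protein of dendritic spines, at 55.0, 33.5 and 58.2 in WT and 64.1, 30.3 and 31.8 in 5xFAD, against a mean of 1.54 for the best shorter junction.

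**Figure D3:**
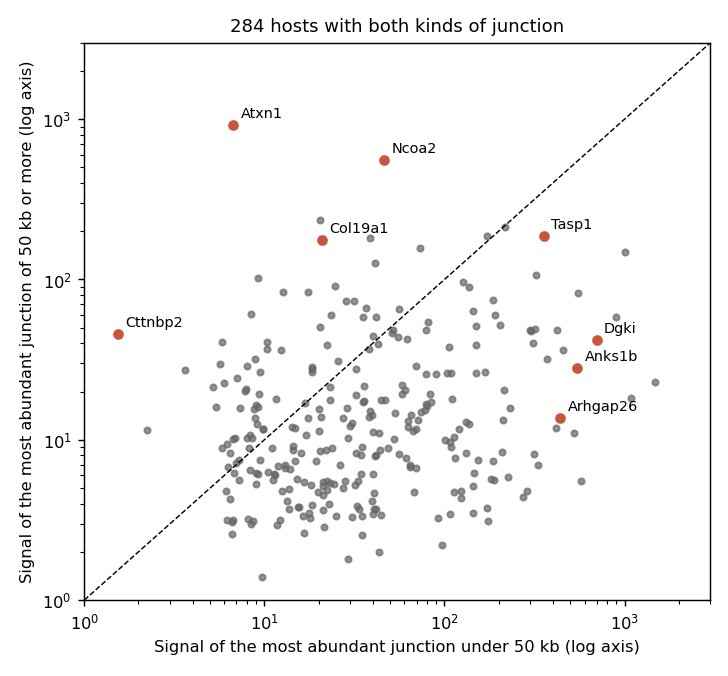
Mean signal of the most abundant long junction against that of the most abundant shorter junction in each of the 284 hosts with both, on log axes. A long junction is the more abundant in 67 hosts, Atxn1 and Cttnbp2 among the farthest from the line of equal signal.

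The 5 longest intervals were all scarce. Grid1, a delta-type glutamate receptor, had the longest at 429 kb, chr14:35635738-36064933, with 0, 2.51 and 3.04 in WT and 2.60, 5.88 and 8.13 in 5xFAD. Lsamp, a limbic adhesion protein, had one of 422 kb with 5.99, 3.87 and 3.04 in WT and 1.73, 2.71 and 2.39 in 5xFAD. For Grid1 the genotypes overlapped, and for Lsamp all 5xFAD values were below all WT values. The others were in Sgcz, a sarcoglycan (390 kb), Dlgap1, a postsynaptic scaffold (347 kb), and Dok6, a docking protein of receptor kinases (342 kb). Dlgap1 had 7.48, 3.87 and 5.38 in WT and 3.46, 2.26 and 2.87 in 5xFAD, also with all 5xFAD values below all WT values. Sgcz had 0, 0 and 2.81 in WT and 4.33, 4.29 and 2.15 in 5xFAD, and Dok6 had 2.25, 3.19 and 2.81 in WT and 0, 2.94 and 1.67 in 5xFAD, and both overlapped. At signals of this size most libraries hold few reads, and counting error is large.

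Hosts were also described by gene lists for neuronal and glial functions. These lists were drawn up with the data known and many of their genes are large, so the shares are descriptions. Of 65 genes for synaptic adhesion and axon guidance with any listed junction, 28 (43.1%) had a long one, against 10.9% of all hosts. The share was 35.5% (11 of 31) for the presynaptic active zone and vesicles and 33.3% (23 of 69) for transcription, chromatin and RNA binding. It was 26.8% (19 of 71) for signalling enzymes, 25.9% (7 of 27) for postsynaptic scaffolds, 22% (13 of 59) for cytoskeleton and trafficking, and 21.7% (13 of 60) for channels and receptors. It was lower for ubiquitin and protein turnover, at 13.5% (5 of 37). For glial genes the share was 28.6% (4 of 14), in Npas3, Xylt1, Zfp536 and Slc4a4, with no long junction above a mean of 13.7. Of 11 factors of circular RNA biogenesis and decay with a junction, 1 had a long one, the RNA-editing family member Adarb2, at a mean of 3.80.

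In these groups the members' levels differed widely. Erc2, an active-zone scaffold, had the most abundant presynaptic member, of 61.3 kb, with 192, 113 and 167 in WT and 261, 104 and 102 in 5xFAD. Tanc1, a postsynaptic scaffold, had a 78.1 kb interval with 94.7, 70.0 and 78.8 in WT and 67.6, 72.5 and 54.7 in 5xFAD. Among adhesion genes, Ctnnd2, Unc5c and Tenm2 had members at means of 43.5, 28.8 and 21.6. The sodium-activated potassium channel Kcnt2 led the channels, with a mean of 36.8. In Erc2 and Tanc1 the genotypes overlapped.

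Other lists had members of like level. In transcription and RNA binding, after Ncoa2, came Celf2, an RNA-binding splicing regulator, at 91.5, Arid1b, a chromatin remodelling subunit, at 84.0, and Hivep2. In signalling, after Arhgap32 and Ralgps1, came the stress kinase Stk39 at 96.7. Klhl2, an adaptor of a ubiquitin ligase, had 81.9 and Cep112, a centrosomal protein, had 65.0. Per list, the median genotype difference of the long junctions ran from -0.31 in the 4 glial members to 0.19 in the 11 ubiquitin members, against -0.06 over all 7025 junctions. In no list did a long junction pass the adjusted threshold in limma.

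Replicates of a genotype differed by more than read counting alone gives, and long and shorter junctions did so to a like degree. Spread was taken as the SD of log2(signal + 1) within a genotype, pooled over both genotypes, and its counting part was computed from the reads. In members with a mean signal of 20 or more the median SD was 0.50 (n = 133), against 0.46 in 1408 shorter junctions and 0.13 from counting alone. From 10 to 20 it was 0.64 against 0.65, from 5 to 10 it was 0.77 against 0.76, from 3 to 5 it was 0.77 against 0.82, and under 3 it was 0.67 against 0.69. Weighted over these levels, long minus shorter was -0.0037.

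**Figure D4:**
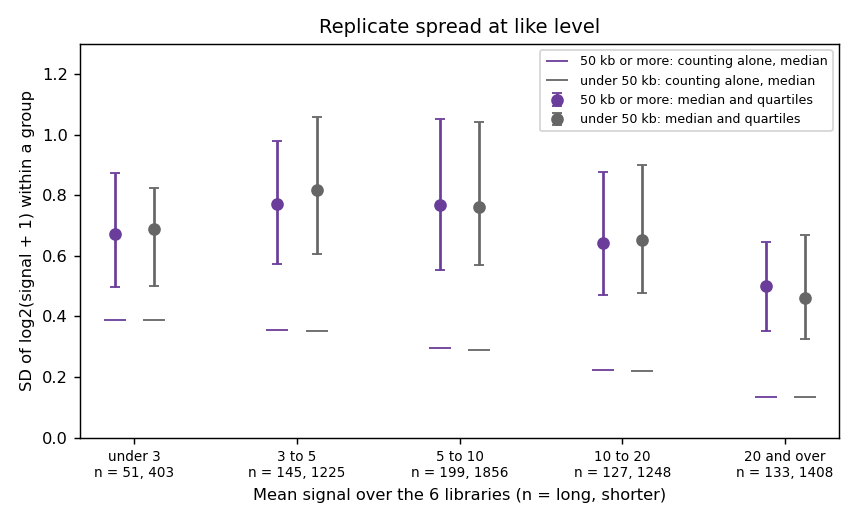
Median replicate SD of log2(signal + 1) of long and of shorter junctions by level, beside the SD from read counting alone. Long and shorter junctions differ by at most 0.05 in each level, and both lie above the counting SD, at 0.50 against 0.13 for long junctions with a signal of 20 or more.

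Several of the members with the highest spread at a mean signal of 5 or more had their lowest value in 5xFAD replicate 1. Rps6kc1, a kinase-like protein of endosomes, had a 65.6 kb interval with 2.99, 22.8 and 27.6 in WT and 0, 18.3 and 24.4 in 5xFAD. Rmst, a long noncoding RNA, had a 61.5 kb interval with 3.37, 32.4 and 15.0 in WT and 1.73, 56.5 and 50.2 in 5xFAD. In both, replicate 1 was the low library of each genotype. A 171 kb interval of Nfib, a nuclear factor of neural development, had 2.25, 18.2 and 17.8 in WT and 0, 12.2 and 15.5 in 5xFAD. Faf1, which encodes a protein that binds the Fas receptor, had a 52.1 kb interval with 26.2, 10.9 and 0.468 in WT and 2.60, 27.8 and 14.8 in 5xFAD, where the lowest value was in WT replicate 3. In all, 6 members were at 0 in 5xFAD replicate 1 and at 10 or more in both other 5xFAD libraries, and the part of that library's depth in this was not tested.

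At the other end, some members barely varied within a genotype. Cacna1e, a voltage-gated calcium channel subunit, had a 67.8 kb interval with 31.4, 32.6 and 31.3 in WT and 19.1, 18.8 and 20.6 in 5xFAD. Rbfox3, the neuronal splicing regulator known as NeuN, had a 201 kb interval with 49.8, 44.2 and 46.1 in WT and 35.5, 35.9 and 32.0 in 5xFAD. In both, every 5xFAD library lay below every WT library. The differences were -0.68 ± 0.38 (SE) and -0.43 ± 0.34 (SE) on the log2 scale, and with limma, which draws a junction's variance towards that of others of its level, the adjusted p was 0.914 and 0.918. The within-group SDs of 0.05 and 0.09 were below the SD that counting alone gives, 0.17 and 0.14. The other 3 of low spread were in Crim1, Msra and Usp6nl, with SDs of 0.12 to 0.13. Msra, which repairs oxidised methionine, had 100.3, 101.2 and 122 in WT and 91.8, 92.4 and 102.3 in 5xFAD.

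No long junction passed the test of genotype. In limma 0 of 655 were called higher and 0 lower at an adjusted p under 0.05, with 0 of all 7025 junctions (0%) in either direction, and the smallest adjusted p was 0.368. At an unadjusted p under 0.05, 22 members were higher in 5xFAD, 3.36% against 2.51% of all junctions, and 28 were lower, 4.27% against 3.17%. On the recovered reads edgeR also called 0 members, with 10 higher unadjusted, 1.53% of members against 1.25% of all junctions, and 12 lower, 1.83% against 1.62%. DESeq2 called 0 members, beside 1 of all 7025 (0.0142%), with 16 higher unadjusted, 2.44% of members against 1.67% of all junctions, and 13 lower, 1.98% against 1.68%. With array quality weights, limma called 1 member higher, Cdkal1, of 2 junctions in all (0.0285%), and 0 lower. That junction was listed only through its 5xFAD libraries, since none of its WT libraries reached 2.03, so it had to differ to be in the table. The median difference of long junctions was -0.08 (quartiles -0.46 and 0.34), against -0.05 for shorter ones. It was 0.02 without 5xFAD replicate 1 and -0.18 without WT replicate 1. Of the libraries left out in turn, only the shallow 5xFAD one changed its sign. Every 5xFAD library lay above every WT library in 31 members (4.73%, against 4.43% of all junctions) and below in 52 (7.94%, against 6.65%).

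Of the 10 members with the smallest p, 5 in each direction, all but Pknox2 were listed through 1 genotype only and so had to differ to be in the table. Those in the higher direction were mostly scarce. Cdkal1 encodes an enzyme that modifies transfer RNA. Its 92.2 kb interval, chr13:29717489-29809686, was at 0 in all 3 WT libraries and had 4.33, 4.75 and 4.30 in 5xFAD, on 5, 21 and 18 reads. Its 5xFAD mean was 16.8-fold a floor of 3 reads over the WT group, a signal of 0.265. That floor allows for counting error alone and the same listing rule touches the ratio, so it is not a lower bound. Among the members, 1 of 655 was at 0 in every WT library and none in every 5xFAD library, beside 7 and 2 of all 7025 junctions. Vti1a, a SNARE of endosomes and the Golgi, had a 108 kb interval with 0.374, 0 and 0 in WT and 3.46, 3.39 and 5.74 in 5xFAD. The log2 differences were 2.45 ± 0.47 (SE) for Cdkal1 and 2.20 ± 0.49 (SE) for Vti1a, both with limma adjusted p = 0.368.

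Pknox2, a homeobox transcription factor, was the abundant member of these 5. Its 129 kb interval, chr9:36762277-36890861, had 6.74, 16.9 and 17.8 in WT and 33.8, 33.9 and 36.1 in 5xFAD, so that the genotypes did not overlap. The difference was 1.37 ± 0.45 (SE) on the log2 scale, with limma adjusted p = 0.716. Another long Pknox2 interval, of 115 kb with the same higher end, had 15.3, 46.0 and 41.4 in WT and 52.8, 37.7 and 41.6 in 5xFAD, which overlapped. The other 2 were Cacna2d3, an accessory calcium channel subunit (62.9 kb), and Rsrc1, a splicing-related protein (88.2 kb). Cacna2d3 had 0, 1.60 and 0 in WT and 3.46, 3.84 and 2.63 in 5xFAD. Rsrc1 had 0, 0.456 and 1.87 in WT and 2.60, 5.65 and 5.74 in 5xFAD. For both the adjusted p was 0.716 in limma.

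In the lower direction the smallest p was that of Dmd, the dystrophin gene. Its 245 kb interval, chrX:80381966-80626696, had 7.11, 2.51 and 4.44 in WT and 0, 0.226 and 0 in 5xFAD. The log2 difference was -2.33 ± 0.51 (SE), with limma adjusted p = 0.368. The 5xFAD libraries held almost no read of it, while a 71.7 kb Dmd interval had 15.7, 4.56 and 9.82 in WT and 8.66, 4.07 and 2.15 in 5xFAD, which overlapped. Smg6, an endonuclease of nonsense-mediated decay, had a 72.1 kb interval with 2.62, 2.28 and 3.27 in WT and 0, 0 and 0.239 in 5xFAD. Pde11a, a phosphodiesterase of cyclic nucleotides, had a 66.8 kb interval with 9.36, 3.87 and 3.98 in WT and 0, 1.13 and 0 in 5xFAD. Both had limma adjusted p = 0.401, and in both the genotypes did not overlap.

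The other 2 were receptors or adhesion proteins of the neuronal surface. Epha6, an ephrin receptor, had a 63.8 kb interval with 8.98, 4.56 and 11.7 in WT and 0, 1.36 and 1.20 in 5xFAD. A 68.6 kb interval of Lsamp had 2.25, 2.05 and 2.10 in WT and 0, 0 and 0.478 in 5xFAD. The limma adjusted p was 0.540 for Epha6 and 0.702 for Lsamp, and neither overlapped between genotypes.

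**Figure D5:**
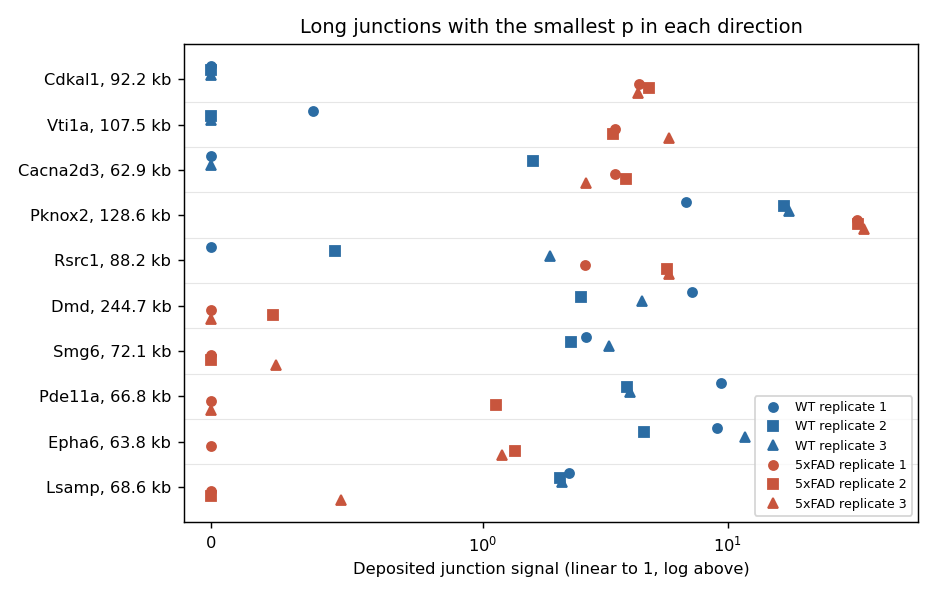
Signal in each AT library of the 10 long junctions with the smallest p, 5 higher and 5 lower in 5xFAD, with 1 point per library. The genotypes do not overlap in any of the 10, and Pknox2, at 33.8 to 36.1 in 5xFAD, is the only one with values above 12.

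The authors' deposited table called more. It marked 34 long junctions (5.19%) at its own adjusted p under 0.05, against 3.76% of all junctions, with 11 higher in 5xFAD, 1.68% of members against 1.52% of all junctions. It marked 23 lower, 3.51% of members against 2.23% of all junctions. All 34 had genotypes that did not overlap, 21 had an unadjusted limma p under 0.05, and their limma adjusted p ran from 0.368 to 0.918. In 11 of them 1 genotype had a mean signal under 1. Many of the 34, such as those of Fer, Kcnma1 and Nell2, were listed through 1 genotype only. For these the listing rule already leans towards a difference. The same counts were not taken over all junctions marked in that table, so those for the 34 are descriptions. Cacna1e and Rbfox3 were among the 34, as were the members of smallest p described above, except Pde11a.

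Dgkb, a diacylglycerol kinase, had 2 members among the 34 in the authors' deposited table and was chosen after its values were seen. Its 54.4 kb interval had 40.8, 39.4 and 40.9 in WT and 7.80, 16.9 and 24.9 in 5xFAD. Its 50.7 kb interval had 13.8, 7.06 and 8.19 in WT and 2.60, 3.16 and 3.11 in 5xFAD. In both, all 5xFAD libraries lay below all WT libraries, and the log2 differences were -1.37 ± 0.45 (SE) and -1.39 ± 0.60 (SE), with limma adjusted p of 0.716 and 0.820. Another long Dgkb interval, of 80.6 kb with the same higher end as that of 54.4 kb, had 16.5, 13 and 18.5 in WT and 9.53, 9.94 and 16.5 in 5xFAD, which overlapped.

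C4b encodes complement component 4, and the difference of its long junction varied with the library left out. The 79.5 kb interval chr17:34880706-34960185, the only listed junction of C4b, had 0.374, 0.456 and 3.74 in WT and 7.80, 53.1 and 3.11 in 5xFAD, on 1, 2, 16, 9, 235 and 13 reads. The genotypes overlapped, and 5xFAD replicate 2 held most reads. The log2 difference was 2.56 ± 0.89 (SE), with limma adjusted p = 0.723. It fell to 1.5 without that library. Without 5xFAD replicate 1 it was 2.82, and without 5xFAD replicate 3, whose value lay inside the WT range, it was 3.37. The junction was listed only through its 5xFAD libraries, since not every WT library reached the signal needed for listing. The listing rule therefore already leans towards a higher 5xFAD level for it. C4b lies beside a near-identical copy, C4a, so the reads could be split or joined between the copies, which was not tested. Tubb2a, a beta-tubulin beside the like gene Tubb2b, is a similar case: its 52.4 kb interval had 33.7, 48.1 and 72.3 in WT and 33.8, 61.7 and 55.7 in 5xFAD. Both were chosen after their values were seen.

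The host genes themselves were compared in the CG libraries, which the labels do not tie to the AT samples. All 10 markers of hippocampal excitatory neurons were above 1 FPKM in every CG library. The library labelled 5xFAD replicate 3 went against its label: Thy1, whose regulatory sequence drives the transgenes, had 296, 308 and 340 FPKM in WT and 1136, 1172 and 305 FPKM in 5xFAD. All 320 hosts could be tested. Over all 6 libraries 0 were called in limma, against 0% of 14500 genes higher and 0.0069% lower, and 6 hosts had an unadjusted p under 0.05, when 2.92% of all genes did. The median host difference was -0.06 on the log2(FPKM + 1) scale, against -0.01 over all genes.

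Without the library labelled 5xFAD replicate 3, 1 host was called, C4b, which was higher in 5xFAD, against 1.18% of all genes called higher and 0.0138% lower. The WT libraries had 12.5, 9.53 and 11.4 FPKM of C4b and the 5xFAD libraries 78.1, 54.4 and 10.7 FPKM, with the last 5xFAD value from the library left out. The limma adjusted p was 0.00104 without that library. The summed FPKM of 5 microglial markers, none at 0 in every library, was 73.5 to 91.9 in WT and 254, 255 and 84.5 in 5xFAD, high in the same libraries as C4b. That of 5 astrocyte markers was 547, 593 and 556 in WT and 1087, 994 and 593 in 5xFAD, high in those libraries as well. For 5 oligodendrocyte markers it was 1654, 1496 and 1482 in WT and 1817, 1829 and 1461 in 5xFAD, also highest in those libraries. That of 7 inhibitory neuron markers was 613, 520 and 581 in WT and 445, 444 and 560 in 5xFAD, low in the same libraries. Choroid plexus markers, 5 in number, summed to 2844 in WT replicate 1 and 41.8 to 493 in the others. The part of any of these cell types in the C4b difference was not tested.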

How the data were processed

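Junction signal in 6 AT libraries and FPKM of host genes in 6 CG libraries were analysed, 3 per genotype. The AT signal, with the authors' own log2 ratio and p-value for each junction, and the CG FPKM were used as deposited by the authors. The build mm9 and the tool DESeq, without a version, are named per the submitters' processing notes. The aligner, junction caller, annotation, strand setting and the base from which starts count were not given in the sources used here. Whether ends fall in exons or introns was not analysed here.

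In every AT library 100% of the deposited signal values were whole multiples of 1 read within 0.01, and these multiples were taken as read counts. Each count limits precision by counting error only, and no duplicates were removed from it here. Genotypes were compared in each table by limma (two-sided, trend over the mean) on log2(value + 1), keeping features whose mean reached 0.5. A call needed a Benjamini-Hochberg adjusted p under 0.05. Differences on this scale understate the change of low values. As alternatives, edgeR's quasi-likelihood test and DESeq2 were run on the recovered counts. Length minimum, pseudocount, filter, scaling and each library were varied. The limma and edgeR fits were tested on simulated data.

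Named junctions were the 10 most abundant, the 5 of smallest p in each direction where fewer than 5 were called, the 5 longest, the 5 highest over their host's best shorter junction, those of the hosts with most members by range, 3 on each side of 50 kb, the 5 of highest and of lowest replicate SD at a mean of 5 or more, and up to 4 hosts per list. A few of these are not reported here. Members and lists were chosen with earlier results of these data known. Software was R 4.3.3, limma 3.58.1, edgeR 4.0.16, DESeq2 1.42.0, Python 3.11.15 and pandas 2.3.3.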

Additional observations from a re-analysis of the deposited data

How the results depend on the processing

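With the replicate number as a block, limma and, on recovered reads, edgeR called 0 long junctions and 0 of all 7025, with smallest adjusted p of 0.855 and 0.996, and limma called 0 host genes. Deviations of libraries with the same number correlated at 0.07, 0.09 and 0.04 over all AT junctions, at 0.12, 0.16 and 0.07 over the long ones and at 0.42, 0.28 and 0.04 over CG genes. In each set at least 1 was under 0.1, so the numbers were not taken as pairs, and in each set 5xFAD replicate 3 correlated best with WT replicate 2. Taken from the WT side, every AT library correlated best with the 5xFAD library of its own number, over all and over long junctions. Over CG genes this held for WT replicates 1 and 2 but not for 3. These correlations do not settle whether the numbers mark pairs. Leaving out each AT library in turn gave 0 calls, with smallest adjusted p of 0.273 to 0.996. Array quality weights called 1 long junction and 2 of all junctions higher, and DESeq2 called 1 of all. The Cdkal1 difference was then 2.46, with limma adjusted p = 0.0426 under the weights. Median-ratio scaling put the median difference of shorter junctions at 0.0067 and that of long ones at -0.018. Quantile normalization put them at -0.011 and -0.042. A minimum length of 100 kb gave a share of the signal of 2.61% in both genotypes and a median within-host log2 ratio of -2.0. With 1 junction per host the share was 5.46% in WT and 5.28% in 5xFAD. Leaving out 1 library put the spread of long minus shorter junctions between -0.033 and 0.0074 and host genes called higher between 0 and 1, the latter without CG 5xFAD replicate 3. The cause of these moves was not tested. The 10 differences of smallest p kept their direction under every alternative run, but these runs reused the libraries from which the 10 were picked. All but Pknox2 were also listed through 1 genotype only, so the kept direction is no added support. A mean signal of at least 5 left only Pknox2 of those 10. The edgeR fit with the block was chosen after seeing the data, as were the alternatives for C4b, Cacna1e, Rbfox3 and Dgkb. Depth limits 5xFAD replicate 1, where 1 read is a signal of 0.866.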
